A study of Homo sapiens with 6 samples.

Results

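The genes described here act where the tissue factor pathway of blood clotting meets plasminogen activation on the cell surface. The 9 genes were TFPI, TFPI2, F3, THBD, PROCR, PLAU, PLAUR, PLAT and SERPINB2, taken by name, with the brightest probe set for each. Of these, 8 were measured, among 33578 genes tested on the arrays, and each of the 8 had 1 probe set annotated with its symbol alone. SERPINB2, the urokinase inhibitor known as plasminogen activator inhibitor type 2, had no probe set annotated with its symbol alone, so it was not analysed. Probe sets with several symbols were not used. The list was chosen by the log2 differences between the groups compared below, in which TFPI and TFPI2 had moved in opposite directions. The values of the members are therefore a description. Whether a member passed the fit across all genes is given only to place its difference against the spread between arrays, and supports nothing. The cells were KPL4, an established line of human inflammatory breast cancer. The 3 control samples carry the genotype label Control. In the 3 ERβ knockout samples, ESR2, which encodes estrogen receptor beta (ERβ), had been disrupted with CRISPR/Cas9. All 6 samples grew in the same medium with serum, insulin and hydrocortisone, and no treatment was given. Samples of a group are labelled as biological replicates, but nothing states that they came from separate cultures, that the knockout line was 1 clone or many, or how the control line was handled. The p-values therefore cover only the spread among these 6 samples, part of which may be technical.

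Tissue factor, the product of F3, starts clotting by binding factor VII, and the Kunitz inhibitor TFPI blocks that complex together with factor Xa. TFPI2 is a related Kunitz inhibitor with a broader range that includes plasmin. Thrombomodulin (THBD) turns thrombin towards activating protein C, and the endothelial protein C receptor (PROCR) aids that step. Activated protein C slows clotting. Urokinase (PLAU), held on the cell by its receptor (PLAUR), and tissue plasminogen activator (PLAT) convert plasminogen to plasmin, which dissolves fibrin and degrades matrix. Tumour cells often carry tissue factor and urokinase on their surface.

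The sequences around the RefSeq start sites of the opposed pair TFPI and TFPI2, and of the ligand and receptor PLAU and PLAUR, are shown as the pair that the list was built around and as a protease with the receptor that holds it. Each runs from 250 bases before to 50 bases after the start, on build GRCh38.p14. TFPI lies at chr2:187554386-187554685 (minus strand), TFPI2 at chr7:93890704-93891003 (minus strand), PLAU at chr10:73910360-73910659 (plus strand) and PLAUR at chr19:43670120-43670419 (minus strand). Capitals mark every match, on either strand, to the consensus palindromic estrogen response element, a single arm of it (GGTCA), the AP-1 site TGANTCA, the GC box GGGCGG and the TATA box TATAAA.
TFPI: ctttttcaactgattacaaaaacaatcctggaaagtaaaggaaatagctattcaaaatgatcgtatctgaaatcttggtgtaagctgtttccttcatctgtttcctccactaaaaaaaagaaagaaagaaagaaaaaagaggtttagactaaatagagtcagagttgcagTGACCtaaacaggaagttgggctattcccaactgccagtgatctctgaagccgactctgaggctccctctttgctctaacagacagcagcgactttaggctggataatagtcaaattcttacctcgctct
TFPI2: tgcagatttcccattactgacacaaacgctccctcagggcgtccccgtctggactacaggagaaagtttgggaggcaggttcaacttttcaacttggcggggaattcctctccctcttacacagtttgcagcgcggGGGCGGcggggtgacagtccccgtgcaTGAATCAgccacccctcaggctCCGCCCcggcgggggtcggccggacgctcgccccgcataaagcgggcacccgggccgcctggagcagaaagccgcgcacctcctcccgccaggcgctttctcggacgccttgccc
PLAU: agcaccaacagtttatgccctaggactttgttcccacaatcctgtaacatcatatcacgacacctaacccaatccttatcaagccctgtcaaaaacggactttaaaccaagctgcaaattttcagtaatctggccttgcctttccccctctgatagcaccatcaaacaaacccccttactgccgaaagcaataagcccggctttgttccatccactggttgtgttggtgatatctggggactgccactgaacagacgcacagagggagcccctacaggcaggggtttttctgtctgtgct
PLAUR: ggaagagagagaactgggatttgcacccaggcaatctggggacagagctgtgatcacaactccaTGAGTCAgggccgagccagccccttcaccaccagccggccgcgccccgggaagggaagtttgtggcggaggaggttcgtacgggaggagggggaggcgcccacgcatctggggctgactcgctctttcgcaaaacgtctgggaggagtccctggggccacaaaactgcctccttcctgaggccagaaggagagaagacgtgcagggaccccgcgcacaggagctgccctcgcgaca
The full response element, which holds the single arm at both ends, matched in none of the 4 windows, and in 0.0659% of all 27305 RefSeq promoter windows. TFPI held 1 single arm, starting 80 bases before the start, as 37.7% of all windows hold at least 1. TFPI2 held 1 AP-1 site, 87 bases before the start, and 2 GC boxes, at 114 and 65 bases before it. PLAUR held 1 AP-1 site, 186 bases before the start, and PLAU held no match to any of the 5 motifs. Of the members not printed, F3 held 1 single arm, 2 AP-1 sites, 4 GC boxes and 1 TATA box, PROCR 2 GC boxes and 1 TATA box, and SERPINB2 1 single arm, 1 AP-1 site and 1 TATA box. The full element matched in none of these 3 windows either, and matches stood in windows of members that passed and of members that did not. THBD and PLAT were not searched. An AP-1 site was present in 7.76% and a GC box in 44.6% of all windows, and a TATA box in 12%. The windows also differed in base composition. TFPI2 had 65.3% G and C with 26 CpG dinucleotides, and TFPI 39.3% with 4. PLAU had 48.7% with 5 and PLAUR 64.0% with 18, beside medians of 58.3% and 14 over all windows. These are matches of letters in a short window and were not tested as binding sites.

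Array medians, in log2 signal and taken over 134748 probe sets, lay between 4.08 and 4.11. Pearson's r across genes above the median brightness was 0.995 to 0.997 for array pairs within a group and 0.986 to 0.988 for pairs across groups, a description only, since genes are not independent replicates. ESR2 itself was dim, at 3.95 ± 0.23 in control and 3.997 ± 0.093 in knockout cells (log2 signal, SD, n = 3), so the arrays could not check the knockout label. The epithelial markers EPCAM, KRT8, KRT18 and ERBB2 were bright, with means of 17.49, 17.23, 15.19 and 13.88 over the 6 arrays. CLDN3, CDH1 and MUC1 were less so, at 7.71, 7.81 and 7.99, and all 10 such markers lay above the median brightness. Of the 10, KRT19 and CLDN3 rose, 2.37-fold and 2.59-fold. None of 10 endothelial, 7 platelet or 9 fibroblast markers passed limma's test (2, 1 and 0 had an unadjusted p under 0.05), and of 9 leukocyte markers CD68 alone passed, rising 1.72-fold (limma adjusted p = 0.0042). Beside these counts, 8.01% of all genes passed, and 14.8% of those above the median brightness. The median log2 levels of the endothelial, platelet, fibroblast and leukocyte markers in control cells were 4.79, 4.33, 4.73 and 4.98. These medians lay below the median gene brightness of 5.05, but 4, 3, 4 and 3 of the markers lay above it. The brightest, the fibroblast marker COL1A1, had a mean of 7.87 over the 6 arrays, close to CDH1 and CLDN3.

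The question was how these genes differ when ESR2 is disrupted. Of the 8 measured members, TFPI2 rose, TFPI, PLAUR and PLAU fell, and 4 did not pass. A pass, or call, means an adjusted p under 0.05 in limma's test across all genes with Benjamini-Hochberg adjustment, and 8.01% of all genes passed it, 4.81% as higher and 3.21% as lower in knockout cells. Among genes above the median brightness, as 7 of the 8 members were, 14.8% passed. The 2 groups did not overlap in 5 of the 8 members, with TFPI2 higher and the other 4 lower in knockout cells, beside 25.3% of all genes, 14.9% higher and 10.3% lower. The members' median log2 difference was -0.29, beside 0.02 over all genes. Since the list was picked with this contrast known, these counts describe the list and support nothing further. In RNA from whole cultures, fewer cells that make a transcript and less transcript per cell cannot be told apart.

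**Figure D1:**
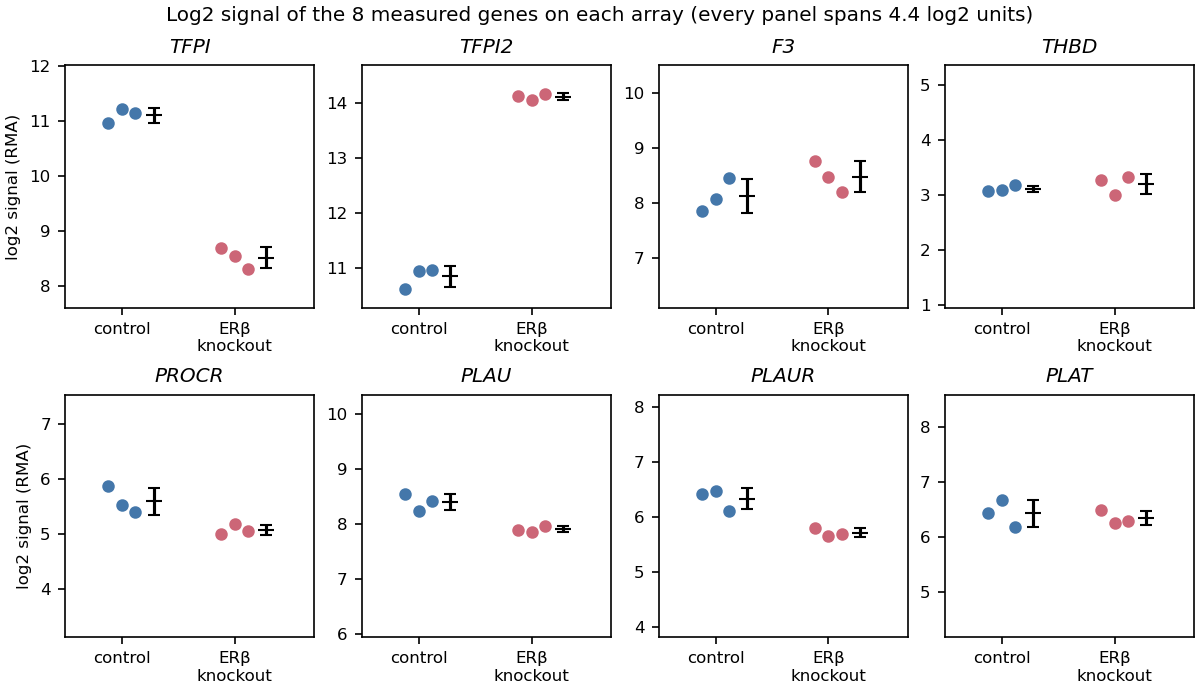
Log2 signal (RMA, vertical axis, every panel spanning the same range) of the 8 measured genes on the 3 control (blue) and 3 ERβ knockout (red) arrays; the black mark beside each group is its mean with the SD. TFPI fell from 11.11 to 8.52 and TFPI2 rose from 10.85 to 14.12, PROCR, PLAU and PLAUR were lower on every knockout array than on any control array, and F3, THBD and PLAT overlapped.

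Among the inhibitors, TFPI was lower in knockout cells. Its log2 signal was 10.96, 11.21 and 11.15 in control replicates 1, 2 and 3 and 8.69, 8.54 and 8.32 in knockout replicates 1, 2 and 3, the order used for every gene below. Each knockout array lay more than 2 log2 units below each control array. The mean went from 11.11 ± 0.13 to 8.52 ± 0.19 (SD, n = 3), a log2 difference of -2.59 (SE 0.14) or 6.01-fold, which ranked number 7 among the falls of all 33578 genes.

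TFPI2 went the other way. Its log2 signal was 10.63, 10.96 and 10.97 on the control arrays and 14.13, 14.05 and 14.17 on the knockout arrays, so that every knockout array was above every control array by more than 3 log2 units. The mean rose from 10.85 ± 0.20 to 14.12 ± 0.06 (SD, n = 3), a log2 difference of 3.26 (SE 0.14) or 9.61-fold. This ranked number 15 among the rises of all genes. The changes of TFPI2 and TFPI thus lay 5.85 log2 units apart. Both genes were bright in both groups.

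F3, the gene for tissue factor, which TFPI inhibits, did not pass. Its log2 signal was 7.86, 8.09 and 8.46 on the control and 8.76, 8.47 and 8.21 on the knockout arrays. The groups overlapped, since knockout array 3 lay below control array 3. The means were 8.13 ± 0.30 and 8.48 ± 0.28 (SD, n = 3), and the log2 difference was 0.35 (SE 0.19). Control replicate 3 was the highest and knockout replicate 3 the lowest of its group.

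Both members of the protein C pathway also failed to pass. THBD was dim on every array, with log2 signals of 3.07, 3.09 and 3.18 in control and 3.28, 2.99 and 3.33 in knockout cells. Its log2 difference was 0.09 (SE 0.13), and a signal at that brightness was not shown to lie above background. PROCR had log2 signals of 5.86, 5.51 and 5.39 on the control and 4.99, 5.18 and 5.04 on the knockout arrays. Its groups did not overlap, and every knockout array was lower. The mean was 5.59 ± 0.25 in control and 5.07 ± 0.10 in knockout cells (SD, n = 3), a log2 difference of -0.52 (SE 0.15), and 2 of the 3 knockout values lay below the median brightness of 5.05. PROCR passed without control replicate 3, at a log2 difference of -0.62, and when only genes above the median brightness were tested.

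The gene for urokinase and that for its receptor were both lower in knockout cells, by much less than TFPI. PLAU had log2 signals of 8.53, 8.24 and 8.41 on the control and 7.89, 7.86 and 7.96 on the knockout arrays, with no overlap. The mean went from 8.39 ± 0.15 to 7.90 ± 0.05 (SD, n = 3), a log2 difference of -0.49 (SE 0.13) or 1.41-fold. The call was lost when control replicate 1, control replicate 3 or any 1 of the 3 knockout replicates was left out, with log2 differences of -0.42 to -0.52 in those fits. It was also lost with a replicate block.

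PLAUR had log2 signals of 6.42, 6.47 and 6.11 on the control and 5.81, 5.66 and 5.69 on the knockout arrays. All knockout values were below all control values, control array 3 being the nearest. The mean went from 6.34 ± 0.19 to 5.72 ± 0.08 (SD, n = 3), a log2 difference of -0.62 (SE 0.14) or 1.53-fold. Its call was lost when control replicate 1, control replicate 2, knockout replicate 2 or knockout replicate 3 was left out, with log2 differences of -0.55 to -0.60.

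PLAT, the other plasminogen activator, did not pass. Its log2 signal was 6.44, 6.69 and 6.18 on the control and 6.50, 6.26 and 6.31 on the knockout arrays, and the groups overlapped. The means were 6.44 ± 0.25 and 6.36 ± 0.12 (SD, n = 3), and the log2 difference was -0.08 (SE 0.15). Without control replicate 2 the sign turned, to 0.05.

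Other genes were then examined, in 7 lists that hold none of the members. Clotting factors, anticoagulants, protease-activated receptors and plasminogen genes were listed by role. Kunitz genes, membrane serine proteases and clade B serpins were listed by protein family, whether or not they act in clotting. Of 80 measured genes, 3 rose, 5 fell and 72 did not pass, beside 8.01% of all genes that passed. The 3 that rose, AMBP, TMPRSS2 and SERPINB8, were all in the family lists. Of the 5 that fell, SERPINB5 alone was in them. The 8 that passed were all among the 45 genes above the median brightness, where 14.8% of all genes passed. The median log2 difference of the 80 was 0.08, beside 0.02 over all genes. Adjusted p-values here come from limma over all 33578 genes.

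Of 18 clotting factors and vitamin K enzymes, 0 rose (1 at an unadjusted p under 0.05) and FGG, the fibrinogen gamma chain, alone fell, with a list median of 0.07. FGG went from a log2 signal of 11.04 ± 0.23 to 10.08 ± 0.26 (SD, n = 3), which is 1.95-fold lower (SE of the difference 0.17, limma adjusted p = 0.0045). Factor VII (F7), the ligand of tissue factor, had a log2 difference of -0.10 (adjusted p = 0.77), and factor X (F10) was dim at 3.96 and 4.17. Of 9 anticoagulant genes 0 passed in limma's test, and 2 were higher at an unadjusted p under 0.05. ANXA5, a phospholipid-binding protein, differed by 0.38 and A2M, a broad protease inhibitor, by 0.58, and both passed when only genes above the median brightness were tested (adjusted p = 0.042 and 0.039). A2M also passed without knockout replicate 3, at 0.79 (adjusted p = 0.0096).

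Protease-activated receptors are cut by thrombin and by complexes of tissue factor. Of the 3 measured, F2RL2, a thrombin receptor, fell 1.71-fold, from a log2 signal of 6.49 ± 0.20 to 5.72 ± 0.16 (SD, n = 3; SE of the difference 0.15; limma adjusted p = 0.0072). F2RL3 had a log2 difference of 0.27 (adjusted p = 0.49), and F2R was dim at 4.37 and 4.42. F2RL1 was not analysed here.

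Of 15 genes of plasminogen, its inhibitors and its receptors, 0 rose (1 at an unadjusted p under 0.05) and 2 fell, with a list median of 0.02. THBS1, thrombospondin 1, a matrix glycoprotein that binds plasminogen, fell 2.06-fold, from a log2 signal of 15.46 ± 0.10 to 14.42 ± 0.04 (SD, n = 3, limma adjusted p = 0.00033). SERPINE2, a cell-bound inhibitor of thrombin and urokinase, fell 1.60-fold, from 8.10 ± 0.07 to 7.42 ± 0.19 (adjusted p = 0.0097). ANXA2, a plasminogen receptor subunit and the brightest gene of the list, had a log2 difference of -0.10 (adjusted p = 0.73), at levels above 16 where the deposited scale may be stretched. Its partner S100A10 differed by -0.28 (adjusted p = 0.31). PLG, plasminogen, was dim at 4.34 and 4.53.

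TFPI and TFPI2 share their Kunitz domains with other proteins. Of 14 other Kunitz genes measured, AMBP alone rose and 0 fell (1 at an unadjusted p under 0.05). AMBP encodes the precursor of bikunin, a Kunitz inhibitor, and rose 4.47-fold, from a log2 signal of 6.40 ± 0.20 to 8.56 ± 0.22 (SD, n = 3, limma adjusted p = 1.2e-05). SPINT1 and SPINT2, inhibitors of cell surface serine proteases, differed by 0.49 (adjusted p = 0.11) and 0.06 (adjusted p = 0.85). SPINT1 passed under robust moderation with an intensity trend (adjusted p = 0.029). The median log2 difference of these 14 genes was 0.07.

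Of 10 membrane serine proteases, TMPRSS2 alone passed, rising 2.01-fold from 7.34 ± 0.12 to 8.35 ± 0.09 (log2 signal, SD, n = 3; limma adjusted p = 0.00058). With the mean of its probe sets in place of the brightest, its log2 difference was 0.45 in place of 1.01. TMPRSS4 passed without control replicate 2, at -0.62 (adjusted p = 0.027). Of 11 clade B serpins, the family of SERPINB2, 1 rose and 1 fell. SERPINB5, maspin, fell 2.03-fold, from 12.01 ± 0.06 to 10.98 ± 0.24 (adjusted p = 0.0012). SERPINB8, a furin inhibitor, rose 1.45-fold (adjusted p = 0.021), a call lost without any 1 control replicate or knockout replicate 1 or 2 (adjusted p = 0.051 to 0.089).

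**Figure D2:**
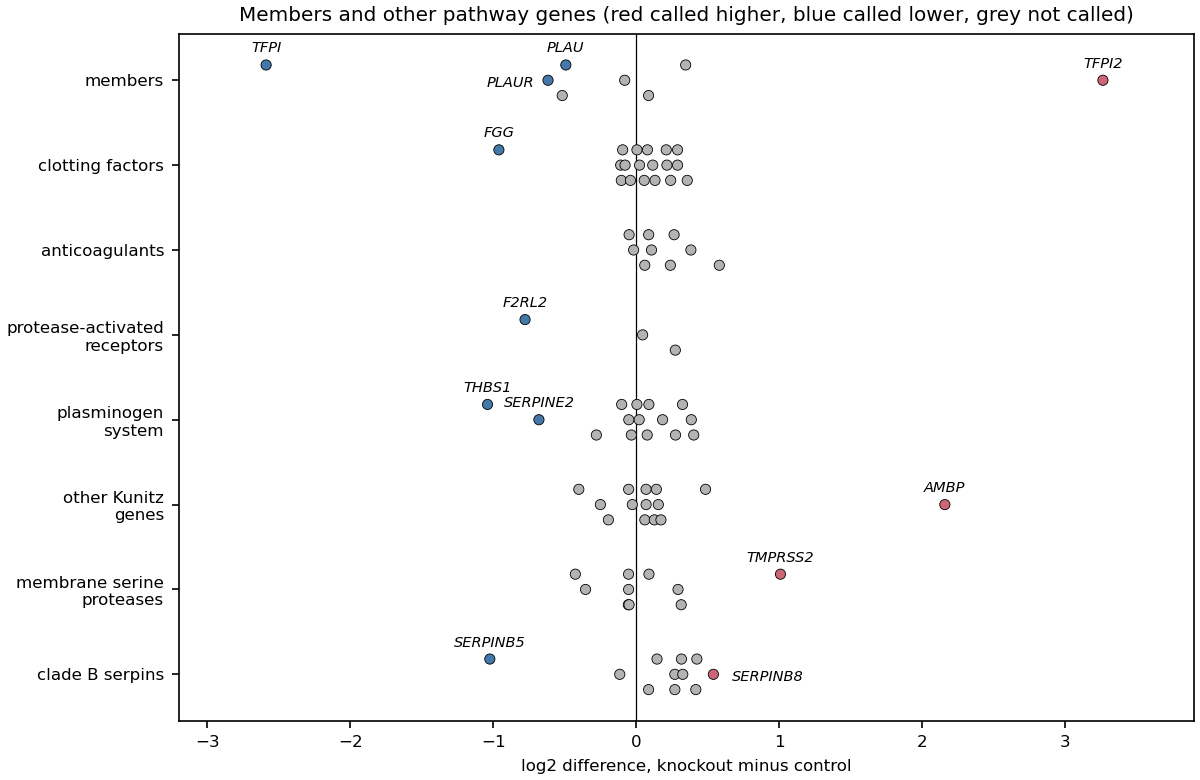
Log2 difference, knockout minus control (horizontal axis), of each measured gene in the member list and in 7 other lists, of clotting and plasminogen genes and of related protein families; red and blue points passed limma's test as higher or lower, grey points did not. TFPI2 at 3.26 and TFPI at -2.59 lie at the outer ends, and of the 80 other genes AMBP at 2.16 lies farthest from 0.

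TFPI stands on chromosome 2 in RefSeq order, within the stretch from SESTD1 to MTERF4. There, 100 of 217 protein-coding genes above the median brightness passed as lower in knockout cells and 2 as higher. Of all genes above the median brightness, 14.8% passed in either direction. The stretch was known from an earlier look at these data, so its counts and median describe it and support nothing further. The median log2 difference of that stretch was -0.51, with quartiles of -0.83 and -0.11, and TFPI had the fall of rank 2 within it. Of the 10 measured protein-coding genes on each side of TFPI, 8 of 20 fell, 1 rose, and the median was -0.42. Among these 20, 18 were above the median brightness, so 14.8% is the nearer share for them too. The next gene on one side, GULP1, an adaptor of phagocytosis, fell by 1.30 (limma adjusted p = 5.5e-05), and the next on the other side, CALCRL, a receptor for adrenomedullin, differed by 0.12 (adjusted p = 0.71). ZSWIM2 differed by -0.02 (adjusted p = 0.97), FAM171B by -0.45 (adjusted p = 0.11) and ITGAV, the integrin alpha V chain, fell by 1.07 (adjusted p = 0.00026). ZC3H15 fell by 0.48 (adjusted p = 0.040). On the side of GULP1, COL5A2 differed by 0.43 (adjusted p = 0.13), WDR75 fell by 0.64 (adjusted p = 0.015), SLC40A1, the iron exporter ferroportin, rose by 1.54 (adjusted p = 5.6e-05) and ASNSD1 differed by -0.12 (adjusted p = 0.79). The part of the shift of neighbouring genes in the fall of TFPI was not tested.

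TFPI2 stands on chromosome 7 among genes that differed in both directions. Of its 20 neighbours, 2 rose and 5 fell, and the median log2 difference was 0.04. Among these 20, 18 were above the median brightness, where 14.8% of all genes passed. The nearest genes on either side, CALCR, the calcitonin receptor, and GNGT1, a G protein gamma subunit, differed by 0.14 (limma adjusted p = 0.70) and 0.01 (adjusted p = 0.98). VPS50 differed by 0.46 (adjusted p = 0.061). HEPACAM2 fell by 1.13 (adjusted p = 0.00091), SAMD9L by 1.96 (adjusted p = 2.5e-05) and SAMD9 by 0.77 (adjusted p = 0.0064). SAMD9 and SAMD9L are antiviral restriction factors. On the other side GNG11, BET1 and COL1A2 differed by -0.05, 0.29 and -0.15 (adjusted p = 0.89, 0.25 and 0.66), and CASD1 rose by 0.56 (adjusted p = 0.033). None of the 4 genes nearest to TFPI2, 2 on each side, passed, a span picked after the values were seen. Among them VPS50 had an unadjusted p of 0.0053 in limma's test, and its groups did not overlap. The next gene beyond VPS50 is HEPACAM2, which fell.

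**Figure D3:**
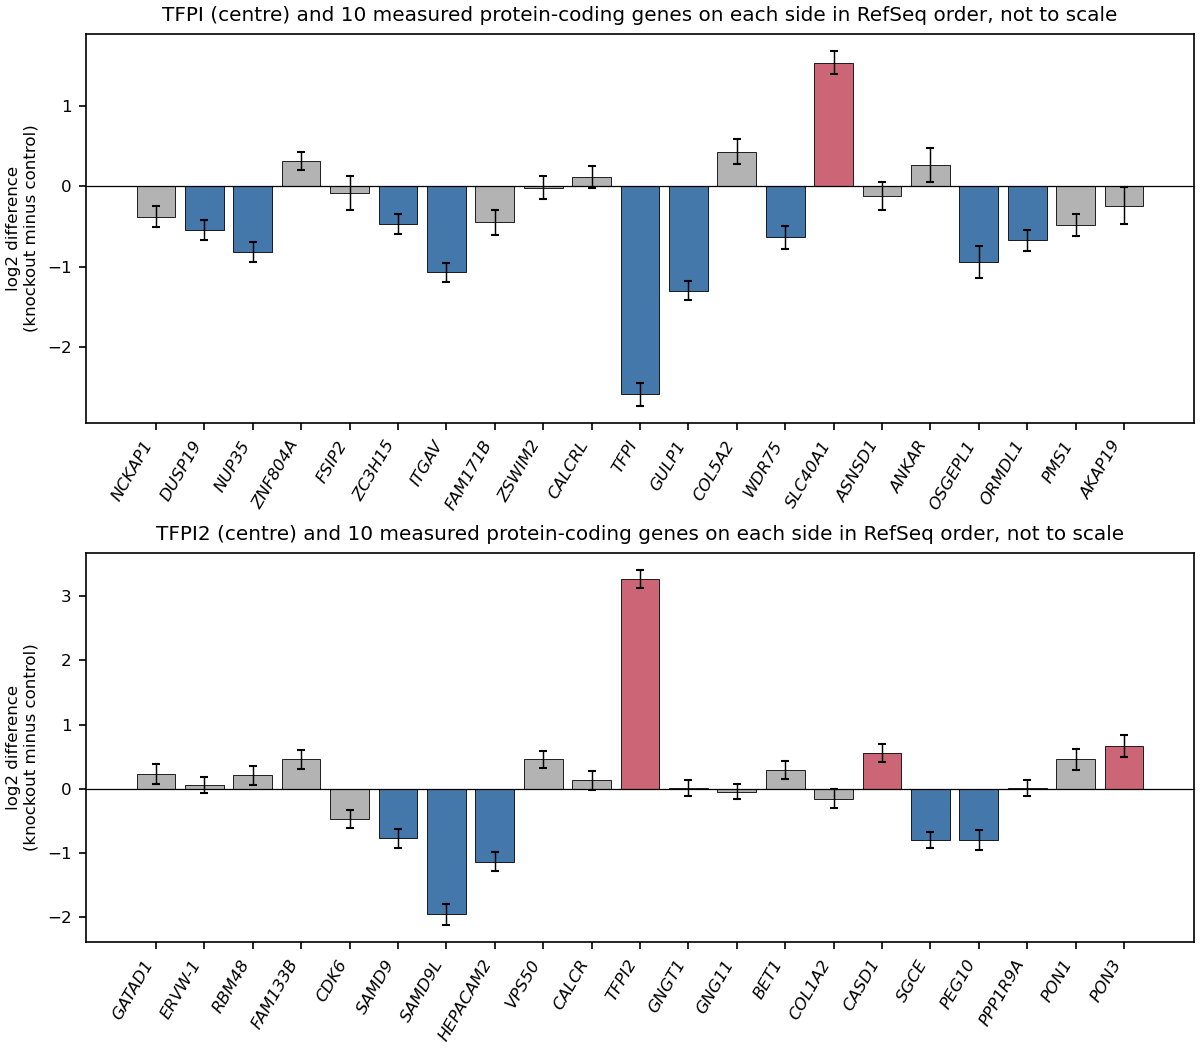
Log2 difference, knockout minus control (vertical axis, bars with SE), of TFPI and TFPI2 in the centre and 10 measured protein-coding genes on each side in RefSeq order; red and blue bars passed limma's test as higher or lower, grey bars did not. Around TFPI 8 of 20 neighbours fell and SLC40A1 rose, whereas around TFPI2 2 rose and 5 fell.

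SERPINB2 has its place on chromosome 18 within a cluster of clade B serpins. Of the 20 measured genes around that place, 12 were above the median brightness, where 14.8% of all genes passed. Among the 20, 2 rose, 1 fell and the median log2 difference was 0.16. Those that passed were VPS4B, SERPINB8 and SERPINB5, and the adjoining SERPINB10 and SERPINB7 differed by 0.15 and 0.32 (limma adjusted p = 0.82 and 0.36).

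The genes whose pattern was most like those of TFPI and TFPI2 were sought among 11780 bright protein-coding genes, by the Euclidean distance between the 6 log2 values after subtraction of each gene's mean. ABCA12, a lipid transporter, was nearest to TFPI at a distance of 0.31, followed by IGF2BP2 (0.49), ACKR3 (0.54), POPDC3 (0.54) and SPAG16 (0.57). ABCA12, ACKR3 and SPAG16 lie in the same stretch of chromosome 2 as TFPI. S100A9, a calprotectin subunit, was nearest to TFPI2 at 0.41, followed by SLC6A14 (0.45), CATSPERB (0.55), CYP4X1 (0.61) and TRPA1 (0.63). The difference between the groups enters this measure, which covers only 6 arrays.

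**Figure D4:**
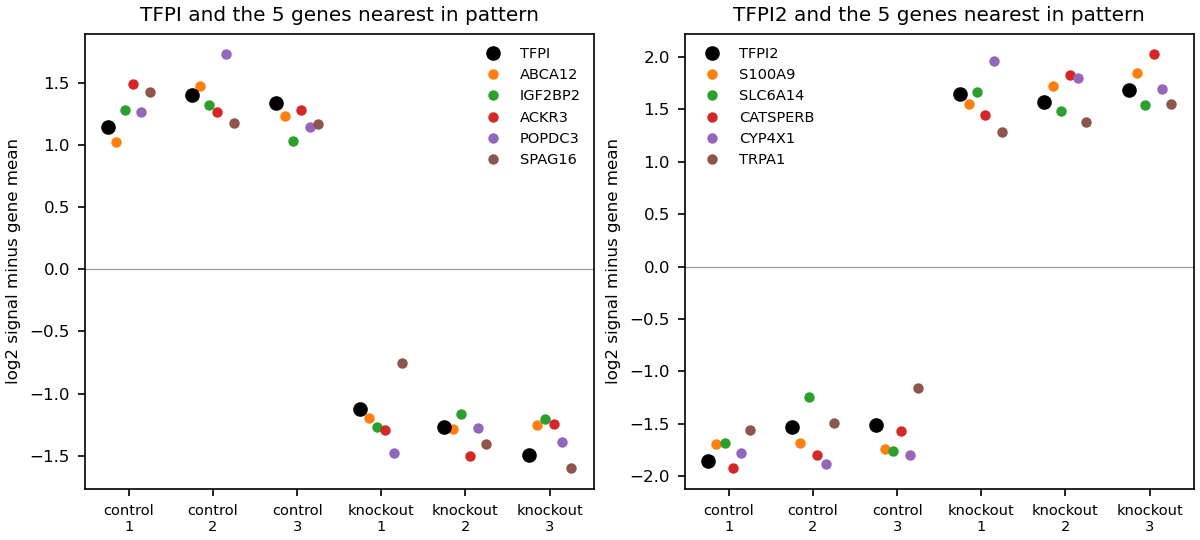
Log2 signal minus the gene's mean (vertical axis) on each of the 6 arrays for TFPI (left, black) and TFPI2 (right, black) with the 5 bright protein-coding genes nearest to each (colours). Every gene shown with TFPI lies above its mean on the 3 control arrays and below it on the 3 knockout arrays, and the reverse holds for TFPI2.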

How the data were processed

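Total RNA of 3 control and 3 ERβ knockout KPL4 samples was hybridised to Affymetrix arrays, per the labels. The authors deposited log2 signal values. The submitters' processing notes name RMA and Transcriptome Analysis Console, and their versions, settings and genome build are not given in the sources used here. That values are log2 follows from their range, and 0.567% lie above 16. Gene names came from the platform annotation, with symbols checked through Entrez ID in RefSeq (GRCh38.p14). Of 134748 probe sets, 35528 had 1 symbol, 1119 several and 98101 none listed here. The brightest probe set per gene was kept.

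The fit used lmFit and eBayes of limma (version 3.58.1, R version 4.3.3), two-sided, over 33578 genes, with Benjamini-Hochberg adjustment at 0.05. The fit had 4 residual and 6.84 prior degrees of freedom. No brightness filter was used. "Dim" means below the median gene brightness, 5.05, and the number of arrays limits precision. The fit was run on simulated data with independent noise and added differences larger than those of PLAU, PLAUR and PROCR. That run therefore does not bear on differences of their size. The members and lists were chosen with earlier results of these data known. Named genes were the members, ESR2, up to 3 called genes in each direction per list with the brightest of the receptor and plasminogen lists, called markers, 5 neighbours on each side of TFPI and TFPI2 and the 5 nearest patterns of each. Other list genes, markers and neighbours were named after their values were seen. Deviations of same-numbered arrays from their group means correlated at -0.02, -0.01 and -0.03, so the numbers were not taken as pairs. Alternatives covered scaling, moderation, probe set choice, a brightness filter, a fold threshold, a replicate block and leaving out each array.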

Additional observations from a re-analysis of the deposited data

How the results depend on the processing

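Over the 14 alternatives the log2 difference ranged from -2.67 to -2.49 for TFPI and from 3.15 to 3.33 for TFPI2, a description, since both were chosen by this contrast. PLAU kept its call in 6 and PLAUR in 8 of the 14, and PROCR passed in 2. With a replicate block the log2 difference of PLAU remained -0.49 without a call, and 0 of the other members changed theirs. PLAT ranged from -0.206 to 0.0455 with 1 array left out, the latter without control replicate 2, the one change of sign among the members. Members called fell from 4 to 2 without moderation and against a fold change of 1.2, and were 2 to 4 with 1 array left out. Genes called over the whole array fell from 2691 to 1086 without moderation and to 1081 against a fold change of 1.2, and were 1668 (without knockout replicate 2) to 2266 with 1 array left out. Without moderation the called genes numbered 0 clotting factors, 1 plasminogen gene, 0 protease-activated receptors and 1 clade B serpin. Against a fold change of 1.2 they were 1 plasminogen gene, 0 protease-activated receptors and 1 clade B serpin. With intensity trend and robust moderation 1 anticoagulant and 2 Kunitz genes were called, and above the median brightness 2 anticoagulants. With 1 array left out the counts were 0 to 1 anticoagulants, 1 to 2 membrane proteases and 1 to 2 clade B serpins. The cause of these moves was not tested.

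With 3 arrays per group, differences near 0.5 log2 units lay close to the threshold. Dim signals such as that of THBD were not shown to lie above background, so their differences are not readable as changes in level.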

Other observations

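The genes around the other members are set beside the 8.01% of all genes that passed, 4.81% as higher and 3.21% as lower. Among genes above the median brightness the share was 14.8%. Around F3, 18 of the 20 lay above it, and around PLAT 16, PLAUR 15, PLAU 14, PROCR 11 and THBD 9. Of the 20 measured protein-coding genes around F3 on chromosome 1, 6 rose and 1 fell, with a median log2 difference of 0.15. CCDC18 rose by 1.69 (limma adjusted p = 7.7e-05), CNN3, an actin-binding calponin, by 1.25 (adjusted p = 0.0025) and PALMD by 0.92 (adjusted p = 0.0014), and TMED5 fell by 0.60 (adjusted p = 0.021). Around PLAT on chromosome 8, 3 of 20 rose and 0 fell (1 at an unadjusted p under 0.05), among them TCIM by 1.71 (adjusted p = 0.00017). Around PLAU 2 of 20 rose and around PROCR 1 of 20. Around THBD and PLAUR 0 of 20 genes passed in limma's test, with 2 and 3 at an unadjusted p under 0.05.

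Beyond the 5 nearest genes around TFPI2, the adjoining imprinted genes SGCE and PEG10 fell by 0.80 each (adjusted p = 0.0016 and 0.0080), and PON3, a paraoxonase, rose by 0.67 (adjusted p = 0.038). These genes were named after their values were seen.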
